A study of Mus musculus with 24 samples.

Results

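The 33 genes described here encode the enzymes and carriers that take up glucose, break it down to pyruvate and lactate, move lactate and pyruvate across membranes and pass pyruvate into the mitochondrion. They were chosen by symbol from the 48321 gene rows of the deposited count tables, and all 33 were present. RNA came from GFP+ hippocampal cells of adult C57BL/6 mice, isolated by sorting. The wild-type animals carried Hes5::CreERT2, a tamoxifen-inducible Cre under the control of the Notch target gene Hes5, together with the Rosa26R-CAG::GFP reporter and Notch2 wt/wt alleles. The Notch2 conditional knockout (CKO) animals carried the same driver and reporter with Notch2 flox/flox alleles. Animals of both genotypes received tamoxifen for 5 days, followed by a chase of 1 day, so that Cre activity and tamoxifen were shared by both groups. Each genotype was represented by 3 pools of sorted cells taken from several animals, each pool by 2 libraries and each library by 2 sequencing lanes. Recombination marks the cells in which the Hes5 driver was active, and Hes5 is expressed by neural stem cells and by some astrocytes.

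Hexokinase traps glucose in the cell, phosphofructokinase commits it to glycolysis, and the enzymes from aldolase to pyruvate kinase convert the sugar phosphates to pyruvate. Lactate dehydrogenase interconverts pyruvate and lactate, which crosses the plasma membrane through monocarboxylate transporters, and the mitochondrial pyruvate carrier delivers pyruvate to the pyruvate dehydrogenase complex, which is switched off by the pyruvate dehydrogenase kinases. Astrocytes and radial glia-like stem cells are known for active glycolysis and lactate release, whereas neurons take up lactate and oxidise it.

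Reads in genes numbered 40366579 to 53984963 per pool, so that 1 read was worth 0.0175 to 0.0265 CPM, the unit of level used here (read counts scaled to a common library size with edgeR's TMM factors). Notch2, the targeted gene, had 99.3, 146 and 303 CPM in wild-type pools 1 to 3 and 65.3, 116 and 121 CPM in CKO pools 1 to 3, a log2 fold change of -0.86 with a standard error of 0.45. The pools overlapped, because wild-type pool 1 lay below CKO pools 2 and 3. The sources used here do not name the deleted exons, and a count over the whole gene includes exons that Cre may leave in place. All 8 markers of astrocytes and radial glia had reads in every pool, with a summed level of 10240 to 18260 CPM in the wild-type and 16540 to 24930 CPM in the CKO pools. Oligodendrocyte markers were also abundant, at 2381 to 6401 and 3194 to 5560 CPM. Markers of oligodendrocyte precursors summed to 1560 to 2683 CPM in the wild-type and 1028 to 3059 CPM in the CKO pools, the lowest in CKO pool 3. Wild-type pool 1 stood apart in the summed markers of excitatory neurons (959 CPM against 296.5 to 414.5 CPM in the other 5 pools), endothelium (108 against 9.70 to 39.5 CPM) and red blood cells (392 against 14.3 to 117.5 CPM). CKO pool 3 stood apart in the summed microglial markers (561 against 176 to 281 CPM). The part of these cells in the results below was not tested beyond leaving each pool out. In such bulk samples, fewer cells of a type and less RNA per cell cannot be told apart.

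Processed pseudogenes and retrogenes repeat the coding sequence of several glycolytic enzymes, and the files list many reads under them. To show how alike they are, 60 bases of the coding sequence of Eno1 (alpha-enolase), Ldhb (the heart-type lactate dehydrogenase subunit) and Pgk1 (phosphoglycerate kinase 1) are set beside the same bases of 1 copy each, with differing bases in capitals. The Eno1 stretch runs from base 1174 to 1233 of the coding sequence, and its copy Gm4735 is an intronless pseudogene at chr2:80837141-80838442 on the plus strand (GRCm38).
Eno1: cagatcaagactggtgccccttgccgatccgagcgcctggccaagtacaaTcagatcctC
Gm4735: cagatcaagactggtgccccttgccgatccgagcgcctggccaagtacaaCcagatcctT
These 60 bases hold 2 of the 5 mismatches found over all 1302 coding bases. The Ldhb stretch runs from coding base 832 to 891, and its copy Gm5514 lies at chr19:21937380-21938381 on the plus strand.
Ldhb: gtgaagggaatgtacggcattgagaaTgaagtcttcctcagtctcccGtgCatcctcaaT
Gm5514: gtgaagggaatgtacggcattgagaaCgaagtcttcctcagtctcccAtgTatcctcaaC
Here 4 of the 20 mismatches over 1002 coding bases fall in the stretch. The copy Pgk1-rs7 at chr12:10898986-10900240 on the minus strand had 0 mismatches over the 1250 coding bases it shares with Pgk1, and coding bases 2 to 61 of both read the same.
Pgk1: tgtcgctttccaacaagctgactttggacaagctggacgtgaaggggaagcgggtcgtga

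Promoters are shown for Ldha and Slc16a1, whose CKO pools lay entirely below and entirely above the wild-type pools, and for Dld, which had the smallest p of the 33 genes. Each runs from 250 bases before to 50 bases after an annotated start (RefSeq, GRCm38.p6), and capitals mark ACGTG or GCGTG on either strand, the core bound by hypoxia-inducible factors. The table lists 2 starts for Ldha, and the promoter with more cores is shown, at chr7:46845554-46845853 on the plus strand.
Ldha: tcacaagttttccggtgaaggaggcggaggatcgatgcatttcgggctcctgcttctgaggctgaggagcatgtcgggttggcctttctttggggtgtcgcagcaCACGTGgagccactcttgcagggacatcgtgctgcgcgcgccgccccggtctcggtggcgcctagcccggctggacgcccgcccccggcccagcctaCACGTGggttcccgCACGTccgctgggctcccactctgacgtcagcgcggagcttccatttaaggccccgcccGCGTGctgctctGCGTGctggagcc
The Slc16a1 promoter lies at chr3:104638414-104638713 on the plus strand.
Slc16a1: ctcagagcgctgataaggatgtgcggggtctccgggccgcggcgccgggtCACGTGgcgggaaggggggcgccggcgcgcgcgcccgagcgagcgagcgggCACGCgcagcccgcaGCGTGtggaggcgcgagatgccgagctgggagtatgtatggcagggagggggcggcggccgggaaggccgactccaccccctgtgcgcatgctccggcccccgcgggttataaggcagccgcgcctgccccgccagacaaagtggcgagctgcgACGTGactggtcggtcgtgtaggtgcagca
The Dld promoter lies at chr12:31351422-31351721 on the minus strand and holds neither core.
Dld: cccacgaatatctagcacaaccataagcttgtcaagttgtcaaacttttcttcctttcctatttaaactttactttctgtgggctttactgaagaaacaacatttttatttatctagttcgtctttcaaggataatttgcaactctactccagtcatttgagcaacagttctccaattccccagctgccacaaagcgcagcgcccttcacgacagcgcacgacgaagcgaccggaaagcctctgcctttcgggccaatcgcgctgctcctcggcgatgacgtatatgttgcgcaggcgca
With both strands counted, the Ldha promoter shown held 5 ACGTG and 2 GCGTG cores, that of the other Ldha start 0 and 2, and the Slc16a1 promoter 3 and 2. A CACGTG palindrome counts on both strands. Entries existed for 32 of the 33 genes, with 48 promoters in all. Of these 48, 36 (75%) held at least 1 ACGTG or GCGTG core, against 43.8% of the 32851 promoters of the table. The sequence GTGGGAA, the core bound by Rbpj, the DNA-binding partner of Notch, was in 2 of 48 (4.17%), those of Pdha1 and Pdk4, against 6.38% of all promoters. These matches describe letters in a window and were not tied to the counts.

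No gene of the set differed between genotypes past the threshold. All 33 passed the filter on low counts, and 0 of 33 were called by edgeR's quasi-likelihood test at an adjusted p under 0.05, as for 0% of the 21477 genes tested. DESeq2 also called 0 of 33, against 0.577% of all genes. The log2 fold change, CKO over wild type, was above 0 for 16 of 33 genes (48.5%) and for 47.2% of all genes, and its median was -0.02 against -0.06. At an unadjusted p under 0.05, edgeR listed 4 genes as higher in CKO (Hk2, Slc16a1, Pdha1 and Dld), against 3.01% of all genes, and 1 as lower (Ldha), against 2.9%. Together these were 15.2% of the set, against 5.91% of all genes. The 3 CKO pools lay above the 3 wild-type pools for 4 genes, the same Hk2, Slc16a1, Pdha1 and Dld, against 7.67% of all genes. They lay below for Pgk1, Pgam1, Eno1 and Ldha, against 8.17%. Together 8 of 33 (24.2%) did not overlap, against 15.8% of all genes. Among the 31 members with a mean of at least 20 CPM 7 did not overlap, against 18.2% of all genes at that level. Both shares were above the background, and neither was given a test. With library size as the only scaling, the 4 higher genes stayed apart, but Pgk1 and Eno1 overlapped, which left 2 lower genes (Pgam1 and Ldha), against 9.11% of all genes higher and 6.13% lower. The smallest p that an exact two-sided permutation test of 3 against 3 pools can give is 0.1.

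**Figure D1:**
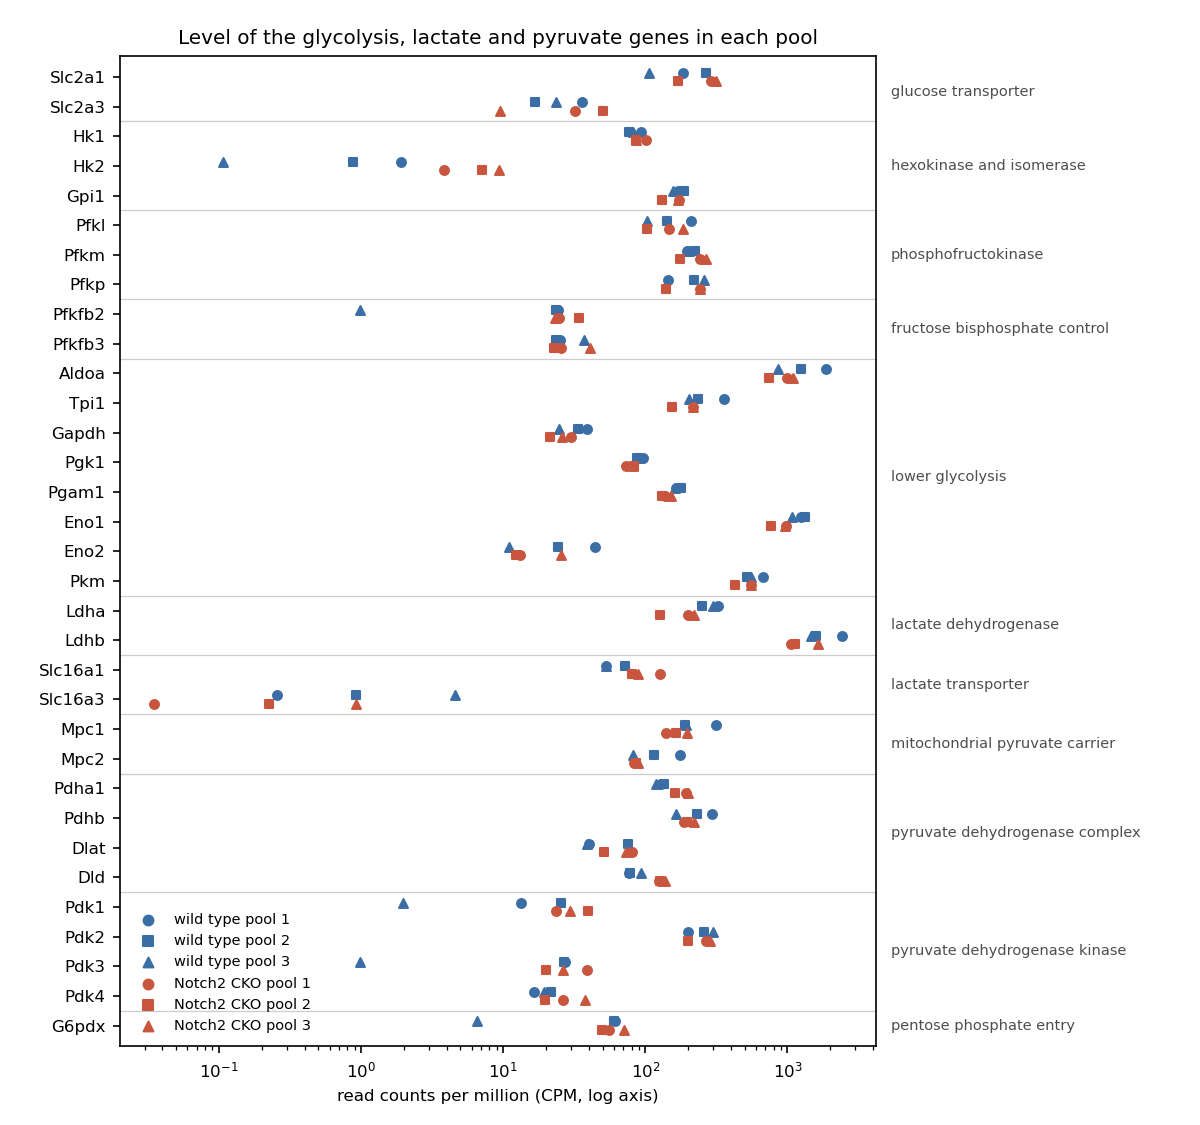
CPM on a log axis for each of the 33 genes, grouped by role, with 1 point per pool (blue, wild type; red, Notch2 CKO). Levels run from 0.0351 CPM for Slc16a3 to 2407 CPM for Ldhb, and wild-type pool 3 lies far to the left of the other pools for Hk2, Pfkfb2, Pdk1, Pdk3 and G6pdx.

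Glucose enters astroglia mainly through Slc2a1 (GLUT1) and neurons through Slc2a3 (GLUT3). Slc2a1 had 183, 269 and 106 CPM in wild-type pools 1 to 3 and 290.1, 170.0 and 317 CPM in CKO pools 1 to 3, with overlapping groups and a log2 fold change of 0.48 (standard error 0.39, edgeR adjusted p = 0.815). It was 0.20 without wild-type pool 3 and 0.91 without wild-type pool 2. Slc2a3 ranged from 9.56 CPM in CKO pool 3 to 50.7 CPM in CKO pool 2, so that the extremes were both CKO pools, and its log2 fold change of 0.27 was -0.29 without CKO pool 2.

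Hk2, the insulin-responsive hexokinase that binds mitochondria, was scarce in all pools and had the highest fold change of the set. Its levels were 1.92, 0.873 and 0.106 CPM in the wild-type pools, from 97, 37 and 4 reads, and 3.82, 7.04 and 9.36 CPM in the CKO pools, from 218, 314 and 476 reads. Every CKO pool lay above every wild-type pool, with a log2 fold change of 2.80 (95% interval 0.34 to 5.25), a p of 0.0307 and an adjusted p of 0.790 in edgeR's test. Leaving out 1 pool at a time gave log2 fold changes of 2.26 to 3.79, the lowest without wild-type pool 3. CKO pool 3 had the highest Hk2 and the highest microglial markers. CKO pool 2, with 7.04 CPM of Hk2, had the lowest summed microglial markers of the 6 pools (176 CPM). Wild-type pool 3 had the lowest Hk2, with microglial markers at 281 CPM. Leaving out the highest CKO pool cannot bring the groups into overlap, and the part of microglia in Hk2 was not tested. Hk1, the constitutive brain hexokinase, spanned only 76.2 to 101 CPM over the 6 pools. Gpi1, the isomerase of the next step, spanned 130.3 to 188 CPM. The Hk2 gene occupies chr6:82725025-82774454 on the minus strand and overlaps Gm17034 on the other strand, and reads of the latter cannot be told apart where strand was not used.

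The phosphofructokinase subunits differed little between genotypes. Pfkm, the muscle-type subunit, had 195, 222 and 203 CPM in the wild-type and 243, 176 and 269 CPM in the CKO pools, with a log2 fold change of 0.15 (standard error 0.22, edgeR adjusted p = 0.882). Pfkl (liver type) and Pfkp (platelet type) had log2 fold changes of -0.06 and 0.01. Pfkfb2 and Pfkfb3 make fructose 2,6-bisphosphate, the activator of phosphofructokinase. Pfkfb2 had 24.3, 23.4 and 0.980 CPM in the wild-type and 24.6, 34.3 and 23.2 CPM in the CKO pools. Its log2 fold change of 0.75 became 0.19 without wild-type pool 3, which alone was low. Pfkfb3 spanned 22.9 to 40.7 CPM.

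All 8 genes of lower glycolysis had log2 fold changes below 0, with a median of -0.38 against -0.06 for all genes, and 3 of them (Pgk1, Pgam1 and Eno1) had CKO pools below the wild-type pools, against 8.17% of all genes. With library size as the only scaling this held for Pgam1 alone. None was called by edgeR, by DESeq2 or at an unadjusted p under 0.05. Eno1, which makes phosphoenolpyruvate, had 1246, 1330 and 1072 CPM in the wild-type and 970, 761 and 967 CPM in the CKO pools. Its log2 fold change was -0.44 (95% interval -0.89 to 0.02), with p = 0.0575 and adjusted p = 0.790 in edgeR's test. Pgk1, the first ATP-yielding step, had 97.0, 86.8 and 90.5 against 72.6, 83.8 and 81.4 CPM, a gap of a few CPM between the nearest pools, and a log2 fold change of -0.21 (standard error 0.21). Pgam1, phosphoglycerate mutase, had 164, 177 and 161 against 137, 130.0 and 152 CPM and a log2 fold change of -0.26 (standard error 0.19).

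The other 5 genes of lower glycolysis overlapped between genotypes on their own rows, though Gapdh did not with the reads of its copies added. Their log2 fold changes were -0.49 for Aldoa (aldolase A), -0.43 for Tpi1 (triosephosphate isomerase), -0.32 for Gapdh (glyceraldehyde-3-phosphate dehydrogenase), -0.64 for Eno2 (the neuronal enolase) and -0.18 for Pkm (pyruvate kinase). Wild-type pool 1 was the highest of the 6 pools for each of these 5 genes, for example 1858 CPM for Aldoa against 736.5 to 1240 CPM in the others. Without that pool all 8 genes remained below 0, but their median was -0.15, against -0.01 for all genes. The 8 also stayed below 0 under each scaling and with any other pool left out. In the first libraries of each pool alone 6 of 8 were below 0 and in the second libraries 7 of 8. The summed markers of excitatory neurons, endothelium and red blood cells were highest in the same wild-type pool 1, and their part in these values was not tested further.

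Ldha, the muscle-type lactate dehydrogenase subunit, had 323, 252 and 298 CPM in the wild-type and 198, 126 and 218 CPM in the CKO pools. All 3 CKO pools lay below the wild-type pools, with a log2 fold change of -0.69 (95% interval -1.30 to -0.07), p = 0.0332 and adjusted p = 0.790 in edgeR's test. Ldhb was the gene of the set with the most CPM on its own row, at 2407, 1582 and 1469 CPM in the wild-type and 1058, 1127 and 1634 CPM in the CKO pools. With the reads of copies added, the means in the wild-type and CKO pools were 3868 and 2773 CPM for Eno1 against 2288 and 1596 CPM for Ldhb. On its own row, Ldhb in CKO pool 3 lay among the wild-type pools, and the log2 fold change was -0.51 (standard error 0.27), or -0.25 without wild-type pool 1. The Ldha gene lies at chr7:46841475-46855627 and Ldhb at chr6:142490249-142507957.

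The 2 lactate transporters gave opposite signs. Slc16a1 (MCT1), the transporter of glia and endothelium, had 52.8, 72.4 and 52.8 CPM in the wild-type and 126, 81.2 and 88.3 CPM in the CKO pools. Every CKO pool was higher, with a log2 fold change of 0.73 (95% interval 0.08 to 1.39), p = 0.0322 and adjusted p = 0.790 in edgeR's test. The summed endothelial markers were 9.70 to 39.5 CPM in the CKO pools and 108, 26.9 and 18.7 CPM in wild-type pools 1 to 3. The part of endothelium or glia in the Slc16a1 levels was not tested. Slc16a3 (MCT4), the low-affinity exporter of strongly glycolytic cells, was near the limit of counting, with 0.257, 0.920 and 4.61 CPM in the wild-type and 0.0351, 0.224 and 0.925 CPM in the CKO pools, from 13, 39, 174, 2, 10 and 47 reads. Its log2 fold change of -2.28 (standard error 1.48) became -0.57 without wild-type pool 3 and -3.88 without CKO pool 3. Of the 174 reads in wild-type pool 3, 166 came from 1 of its 2 libraries.

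Mpc1 and Mpc2, the partner subunits of the mitochondrial pyruvate carrier, had log2 fold changes of -0.48 and -0.52, with overlapping pools. Mpc1 had 316, 189.9 and 192 CPM in the wild-type and 141, 164 and 197 CPM in the CKO pools. Wild-type pool 1 was the highest for both subunits, and without it the log2 fold change was -0.18 for each.

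Of the 4 genes of the pyruvate dehydrogenase complex, Pdha1 (E1 alpha) and Dld (E3) had CKO pools that lay entirely above the wild-type pools. Dld had 77.3, 78.5 and 93.7 CPM in the wild-type and 125, 127 and 137 CPM in the CKO pools, a log2 fold change of 0.64 (95% interval 0.16 to 1.13), with p = 0.0163 and adjusted p = 0.790 in edgeR's test. It was the smallest p of the 33 genes, and the log2 fold change was 0.61 to 0.73 with any 1 pool left out. Pdha1 had 129, 135 and 118 CPM against 194, 161 and 198 CPM, a log2 fold change of 0.53 (95% interval 0.07 to 1.00) and p = 0.0304. The first libraries alone gave 1.84 for Pdha1 and the second libraries -0.17, where its CKO pools lay below the wild-type pools. Dlat (E2) had a log2 fold change of 0.40 and Pdhb (E1 beta) of -0.20, both with overlapping pools. The Dld gene lies at chr12:31331277-31351453 and Pdha1 at chrX:160122209-160138413.

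Among the kinases that inactivate this complex, Pdk2 was the most abundant and differed least, at 200.5 to 299 CPM in the wild-type and 199 to 284 CPM in the CKO pools (log2 fold change -0.02). Pdk1, a hypoxia-responsive kinase, had 13.3, 25.5 and 1.99 CPM in the wild-type and 23.6, 39.2 and 29.5 CPM in the CKO pools. Its groups overlapped, and the log2 fold change of 1.18 (standard error 0.80) became 0.66 without wild-type pool 3. It was 2.09 without wild-type pool 2, and the remaining pools did not overlap. Pdk3 had 0.980 CPM in wild-type pool 3 and 20.1 to 38.6 CPM in the other 5, and its log2 fold change of 0.63 became 0.07 without that pool. Pdk4, the kinase induced by fasting and fatty acids, spanned 16.5 to 37.4 CPM. G6pdx, which diverts glucose 6-phosphate into the pentose phosphate pathway, had 60.8, 59.8 and 6.54 CPM in the wild-type and 55.7, 49.6 and 71.3 CPM in the CKO pools. The low value was again that of wild-type pool 3, and without it the log2 fold change of 0.47 was -0.04.

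**Figure D2:**
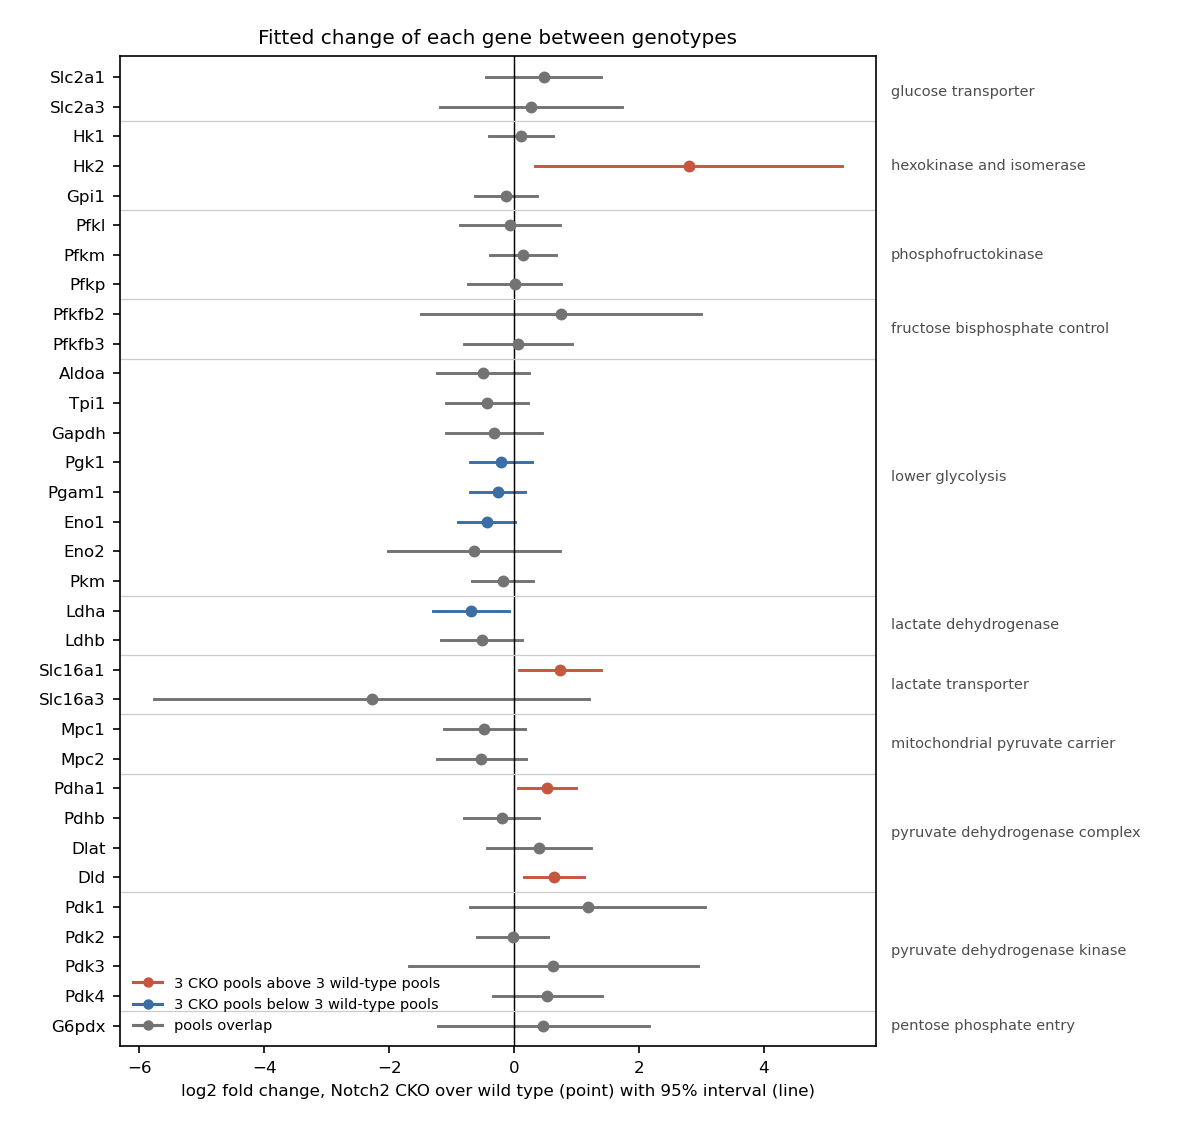
Fitted log2 fold change, CKO over wild type, for each gene (point) with its 95% interval (line), coloured where the pools do not overlap. The intervals of Hk2, Slc16a1, Pdha1, Dld and Ldha leave out 0, and the 8 points of lower glycolysis lie left of 0.

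Over the set, 12 genes were lowest in wild-type pool 3 and another 12 in CKO pool 2, while 12 were highest in wild-type pool 1 and 8 in CKO pool 3. CKO pool 2 had the highest share of reads outside genes (35.3%) and the lowest of unaligned reads (11.2%). It also had the most genes with a read, 38187 against 26502 to 33937 in the others. Wild-type pool 1 had the lowest share of reads outside genes, and wild-type pool 3 the highest of unaligned reads (21.7%). The part of these differences in the gene levels was not tested. The labels tag wild-type pools 1 to 3 with 20K, 12K and 2K and CKO pools 1 to 3 with 19K, 4K and 9K, and the sources used here do not say what the tags mean. Hk2, Pfkfb2, Pdk3 and G6pdx were lower in both libraries of wild-type pool 3 than in any of the other 10 libraries, and Pdk1 in 1 of the 2. G6pdx had 7 and 240 reads there, and Pdk3 had 9 and 28.

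Near-identical copies were found for 14 of the 33 genes, by at least 90% identity over at least 200 bases or by name. The share of a gene's reads listed under its copies ranged from 4.61% to 5.34% over the pools for Pdha1 to 95.3% to 96.3% for Gapdh, which has 170 copies. Eno1, with 4 copies, had 66.5% to 70.4% of its reads on them, and Pgk1, with 3, had 70.0% to 71.1%. For Ldhb, whose copy Gm5514 is shown above, the share was 19.5% to 20.9%, and for Ldha it was 14.6% to 18.4%. The share varied little between pools for a given gene, except for G6pdx, which had 22.6% in wild-type pool 3 and 14.2% to 15.7% elsewhere. Of the 50-base windows of the coding sequence, 94.2% occurred unchanged in a copy for Gapdh, 83.3% for Eno1, 100% for Pgk1, 35.6% for Ldhb and 1.16% for Pdha1. The wild-type mean of Gapdh was 32.3 CPM on its own row and 817 CPM with the reads of its copies added, and its log2 fold change was then -0.40 (standard error 0.22) in place of -0.32. Its pools then did not overlap, at 1011, 776 and 665 CPM in the wild-type and 643, 560 and 660 CPM in the CKO pools. With copies added, 8.13% of all genes lay lower in CKO without overlap. Eno1 gave -0.48 (standard error 0.18, p = 0.0309, adjusted p = 0.793 in edgeR's test) with its copies, in place of -0.44, and Ldha gave -0.70 in place of -0.69. No gene was called with copies added, and no gene of the set changed sign.

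**Figure D3:**
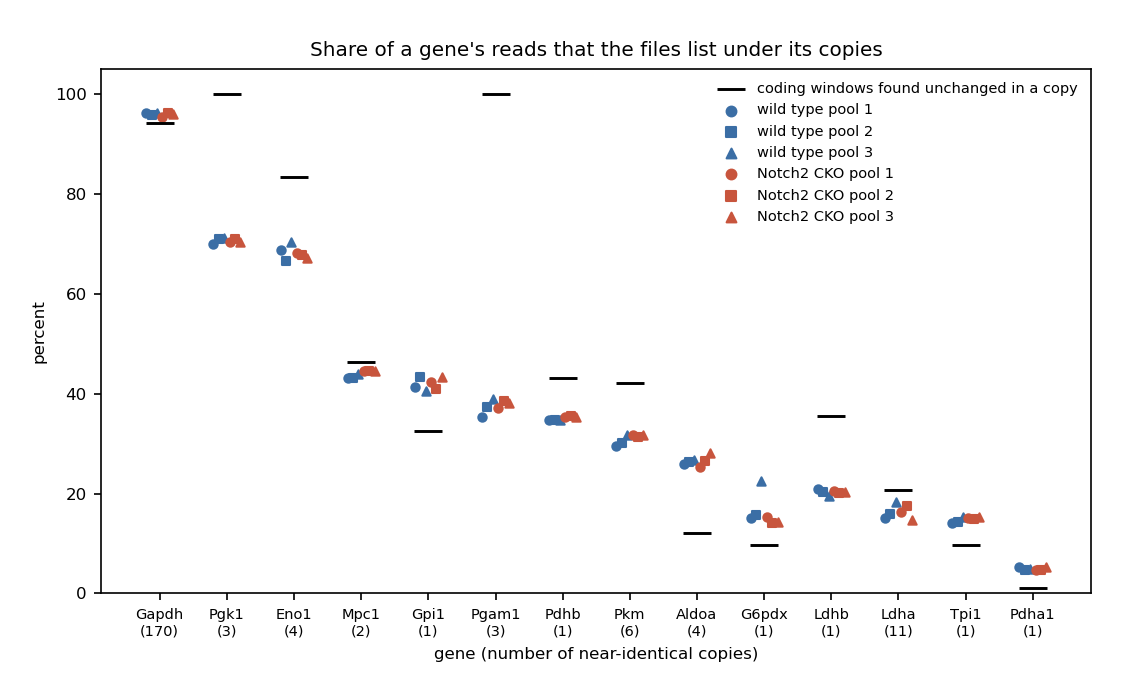
Percent of a gene's reads that the files list under its near-identical copies, 1 point per pool, for the 14 genes with copies (number of copies in brackets), with a bar for the percent of 50-base coding windows found unchanged in a copy. The points of a gene lie close together, from 95.3% to 96.3% for Gapdh down to 4.61% to 5.34% for Pdha1.

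Genes with and without copies differed in several ways that the choice of genes did not use. Of the 14 genes with copies 12 had log2 fold changes below 0 (median -0.29), and of the 19 without copies 14 were above 0 (median 0.27). The genes with copies also had shorter transcripts (median 1795 against 3484 bases) and higher levels (median 208 against 59.8 CPM). When the second library of each pool was compared with the first, 11 of the 14 were lower (median log2 difference -0.32) and 16 of the 19 higher (median 0.73). Of all 18267 genes in that comparison 9952 were higher in the second library (median 0.10). The groups with and without copies thus differed in transcript length, level, library difference and sign of the genotype difference at once. These were not compared gene by gene, and their part in the genotype difference was not tested.

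On the RPKM scale (CPM per kilobase of exon, with the reads of copies added), Ldhb was the highest of the set at 1457 ± 425 in the wild-type and 1016 ± 251 in the CKO pools (SD, n = 3). Eno1 followed at 719 ± 39.1 and 515 ± 68.1, then Aldoa at 483 ± 182 and 344 ± 69.7. In both genotypes the gaps between these neighbours exceeded the SD of either gene. The order depends on the length used, here all annotated exons. Per kilobase of the longest coding transcript, Eno1 was 1908 ± 104 and 1368 ± 181 and Ldhb 1754 ± 512 and 1224 ± 302 (SD, n = 3), which differed by less than the SD of Ldhb. At the low end stood Hk2 at 0.162 ± 0.153 and 1.13 ± 0.466 and Slc16a3 at 0.363 ± 0.441 and 0.0741 ± 0.0880 RPKM.

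Isozyme shares compare members of a family within a pool and do not depend on library scaling, here as reads per exonic kilobase on the genes' own rows, without copies. Hk2 made up 2.84%, 1.61% and 0.185% of hexokinase 1 and 2 in the wild-type and 5.13%, 10.5% and 13.5% in the CKO pools. The groups did not overlap, with p = 0.1 in an exact two-sided permutation test, the smallest this design allows, and 0.4 after adjustment over 12 shares. Pdk2 made up 78.8%, 80.6% and 93.9% of the 4 kinases in the wild-type and 76.8%, 77.3% and 78.4% in the CKO pools, and Pdk4 5.51% to 6.07% against 6.83% to 9.33%. Both had the same p of 0.1 in the exact permutation test and did not overlap. The highest share of Pdk2 was that of wild-type pool 3, where Pdk1 and Pdk3 had few reads. Ldha made up 5.99%, 7.01% and 8.78% of lactate dehydrogenase in the wild-type and 8.16%, 5.04% and 5.96% in the CKO pools, so the heart-type subunit Ldhb dominated in every pool. Eno2 was 1.16% to 3.88% of enolase, or 0.345% to 1.25% with the copies of Eno1 added, and Mpc1 85.3% to 89.2% of the carrier in all pools. Pfkm was 58.0% to 67.1% of phosphofructokinase, and Pfkl exceeded Pfkp except in wild-type pool 3, where it was 16.04% against 20.2%. These shares depend on the length used. Per kilobase of the longest coding transcript, Pfkp was above Pfkl, at 50.2 ± 13.9 against 40.6 ± 14.8 in the wild-type pools (SD). In the CKO pools it was 50.5 ± 14.4 against 38.7 ± 11.1. Mpc2 has 7344 exonic bases but a longest coding transcript of 1025, against 2082 and 961 for Mpc1.

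**Figure D4:**
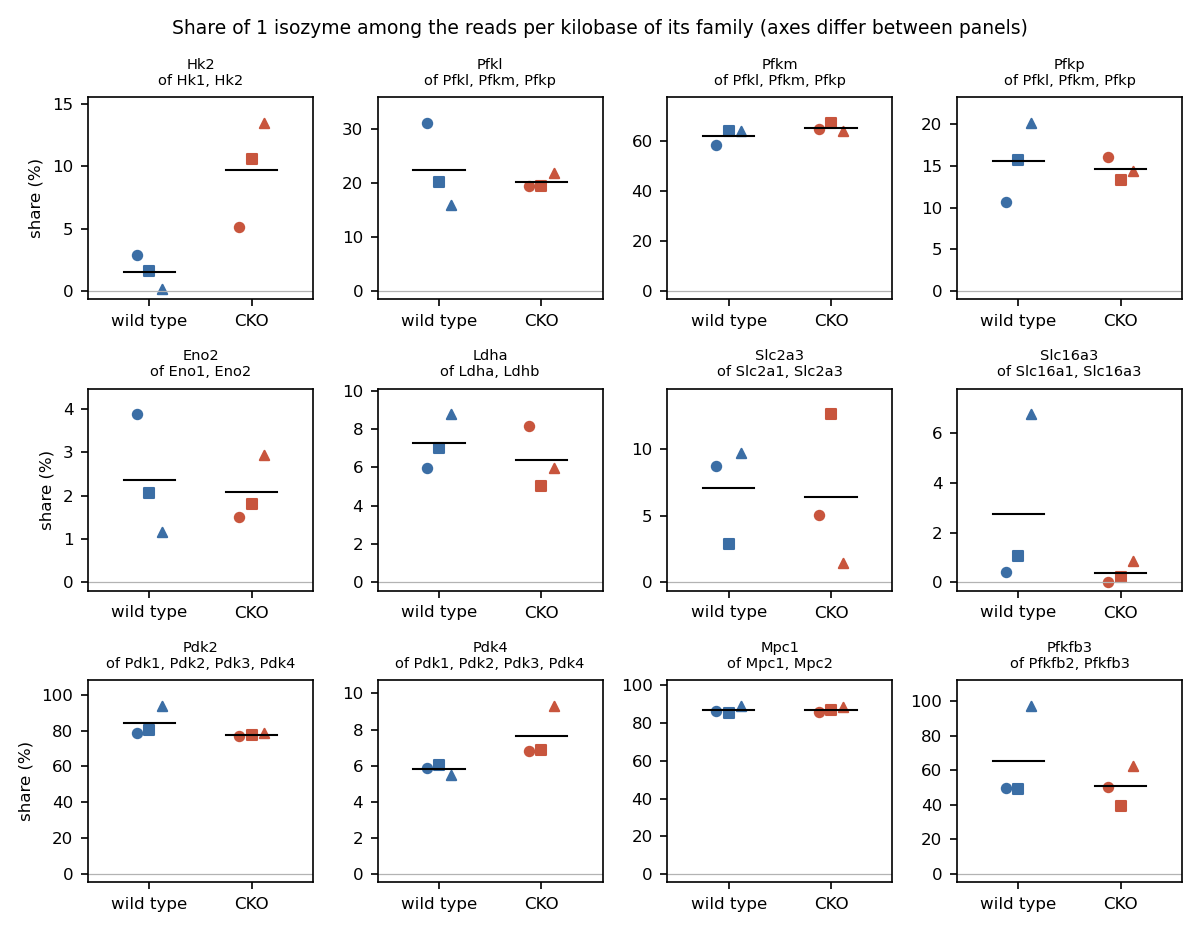
Percent of 1 isozyme among the reads per exonic kilobase of its family in each pool (points) with the mean of 3 pools (line), with a separate axis for each panel that includes 0. Hk2 is 0.185% to 2.84% in the wild-type and 5.13% to 13.5% in the CKO pools, and most other families overlap.

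The 2 libraries of a pool measured the same sorted cells and differed well beyond sampling noise (chi-square per degree of freedom 75.9 to 376 over all genes, against 0.981 to 1.01 between lanes). In a test of the second against the first library with pool as a block, edgeR called 0 of the 33 genes at an adjusted p under 0.05, as for 0% of 18267 genes, while DESeq2 called 5, against 11.4% of all genes. These 5 were Hk1, Slc2a3, Ldhb, Mpc1 and Pdhb. At an unadjusted p under 0.05 in edgeR, Slc2a3 and Hk1 were higher in the second libraries, against 7.6% of all genes, and Aldoa, Ldhb, Mpc1 and Pdhb lower, against 6.78%. Hk1 and Pdk1 were higher in the second library in all 6 pools, against 5.73% of genes, and Ldhb and Mpc1 lower in all 6, against 9.1%. Ldhb averaged 2034 CPM in the first and 1109 CPM in the second libraries, a log2 difference of -0.82 (standard error 0.15), which is larger than its difference between genotypes. Hk1 averaged 49.9 and 119 CPM.

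The fold changes between genotypes were also fitted in each set of libraries alone. The sign differed between the sets for 11 of the 33 genes, against 40.7% of all genes fitted in both. These were Slc2a3, Hk1, Pfkl, Pfkfb3, Gapdh, Eno2, Pkm, Mpc2, Pdha1, Pdhb and Dlat. Hk2 gave 2.63 and 2.92, Dld 0.74 and 0.46, Slc16a1 0.89 and 0.49, and Pdk1 1.71 and 0.88. Ldha gave -1.19 in the first and -0.20 in the second libraries, and Eno1 -0.57 and -0.29. In the first libraries alone Pdha1, Dlat and Pdk1 lay higher in CKO without overlap (8.57% of all genes). There Eno1, Ldha and Mpc2 lay lower (8.58%). In the second libraries alone Hk2 lay higher (6.04%), and Pgam1, Eno1, Eno2 and Pdha1 lower (4.97%). Dld, Slc16a1 and Pgk1 overlapped in both sets.

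**Figure D5:**
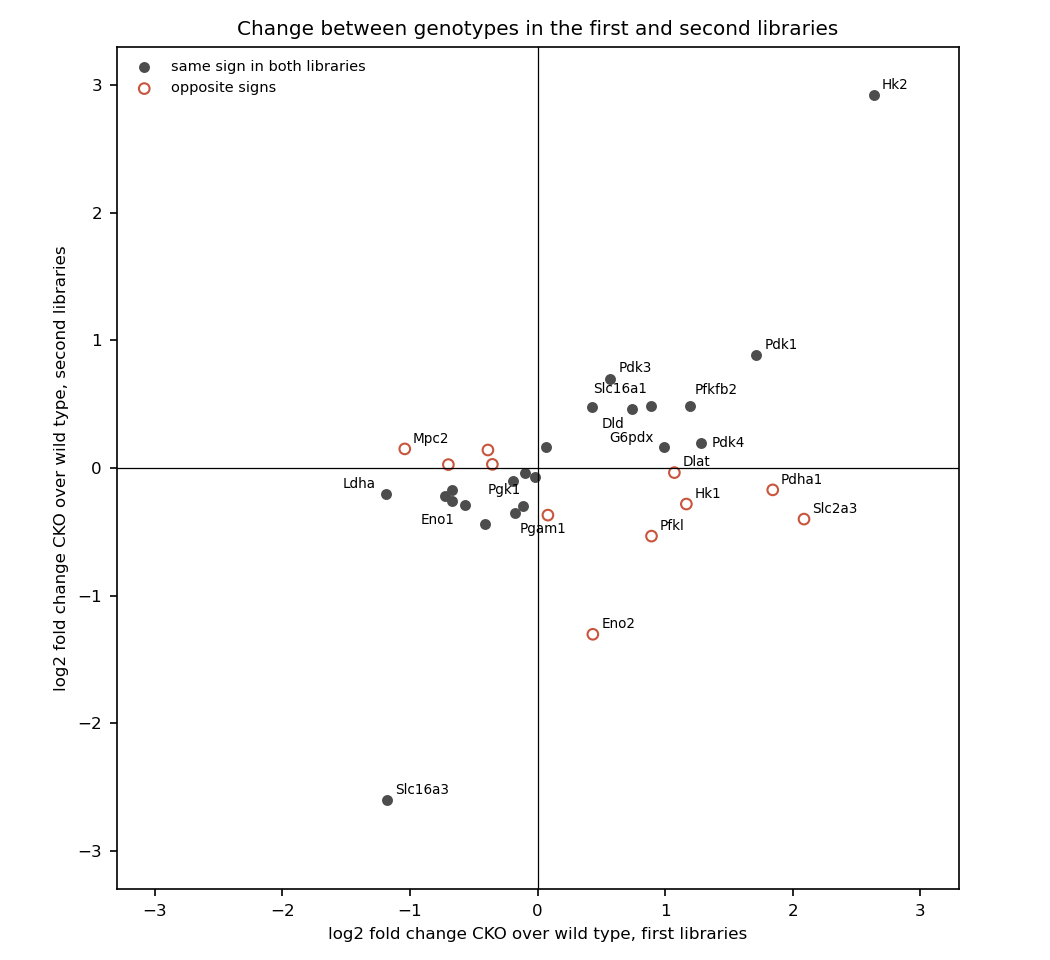
Log2 fold change, CKO over wild type, fitted in the first libraries of the pools (horizontal axis) and in the second libraries (vertical axis), 1 point per gene, with open points where the signs differ. Hk2 lies at 2.63 and 2.92, and Pdha1 at 1.84 and -0.17.

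Neighbouring pathways were read from 7 lists, and edgeR called 0 genes in each. Of 14 other glycolytic enzymes tested 10 were above 0 (median 0.13, or 0.59 without wild-type pool 1 and 0.35 without wild-type pool 3), and Minpp1, Hkdc1, Adpgk and Eno3 lay higher in CKO without overlap, against 7.67% of all genes. Minpp1, a phosphatase that can bypass phosphoglycerate mutase, had 10.4, 12.5 and 5.96 CPM in the wild-type and 23.8, 47.2 and 27.2 CPM in the CKO pools. Its log2 fold change was 1.76 (standard error 0.46, edgeR adjusted p = 0.790), and it was the single gene of the 7 lists that DESeq2 called (adjusted p = 0.0317), where DESeq2 called 0.577% of all genes. Hkdc1, a hexokinase-like gene, had 0.0396 to 0.236 CPM against 0.3365 to 1.08 CPM, from 2, 10 and 3 reads in the wild-type and 47, 15 and 55 reads in the CKO pools. Aldoc (aldolase C), the most abundant gene of this list, had 14470, 11310 and 9040 CPM in the wild-type and 7179, 7469 and 12610 CPM in the CKO pools. Its pools overlapped, and its log2 fold change was -0.35 (standard error 0.29).

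Of the 10 further transporters of lactate and glucose 6 were above 0. Bsg (basigin), the chaperone that carries Slc16a1 to the membrane, had 1470, 851 and 1012 CPM in the wild-type and 658, 598 and 715 CPM in the CKO pools, with a log2 fold change of -0.76 (standard error 0.25, p = 0.0171, edgeR adjusted p = 0.790). Its pools did not overlap, and its sign was opposite to that of Slc16a1. Slc16a7 (MCT2), the neuronal lactate transporter, had 3.99 to 7.16 CPM against 7.42 to 29.5 CPM, and its log2 fold change of 1.45 was 0.47 without CKO pool 2.

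Of 15 genes of pyruvate entry and its control 9 were above 0. Lias (lipoic acid synthase), which supplies the cofactor of the dehydrogenase complexes, had 62.0, 52.3 and 63.8 CPM in the wild-type and 42.7, 30.1 and 31.7 CPM in the CKO pools, a log2 fold change of -0.77. Pdp1, the phosphatase that reactivates pyruvate dehydrogenase, had 13.3, 40.6 and 13.6 against 45.8, 42.4 and 47.0 CPM. The citric acid cycle list of 21 genes also holds the aminotransferases Got1 and Got2 and the cytosolic enzymes Mdh1, Idh1 and Aco1. Of the 21 genes 12 were below 0 (median -0.35, or -0.17 without wild-type pool 1). Without overlap 6, Mdh1 and Got1 among them, lay lower in CKO (8.17% of all genes) against 1, Suclg2, that lay higher (7.67%). With library size as the only scaling these were 4 and 3. Among these, Mdh1 (cytosolic malate dehydrogenase) had 575, 345 and 417 CPM in the wild-type and 249, 239.6 and 333 CPM in the CKO pools, and Sdhc, a membrane anchor of succinate dehydrogenase, 202, 141 and 158 against 114, 105 and 118 CPM. In the pentose phosphate list 5 of 10 were above 0, with Taldo1 (transaldolase) at 127 to 229.5 against 103 to 123 CPM and Rpe at 12.8 to 36.4 against 33.4 to 71.2 CPM.

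Of 12 glycogen genes 10 were above 0 (median 0.35). Epm2a (laforin) had 0.159 to 0.708 CPM in the wild-type and 1.71 to 4.39 CPM in the CKO pools, and Ugp2, which makes UDP-glucose, had 77.1 to 185 against 198 to 285 CPM. Of 19 hypoxia-response genes 8 were above 0 (median -0.07). Hif1a had 99.2, 149.5 and 163 CPM in the wild-type and 229, 246 and 156 CPM in the CKO pools, overlapping because CKO pool 3 lay below wild-type pool 3, with a log2 fold change of 0.62 (standard error 0.28), and Adm, a classical hypoxia target, had 18.97 to 51.0 against 6.06 to 25.9 CPM.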

How the data were processed

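The deposited files held raw read counts per gene for 24 sequencing runs (Smart-Seq2 cDNA, Nextera XT libraries, per the labels' protocols). Bowtie2, HTSeq and the build GRCm38 are named in the submitters' processing notes. The sources used here give no versions, gene annotation or counting options. The lines for reads with several or poor alignments held 0 reads. Reads outside genes made up 16.0% to 35.3%, unaligned reads 11.2% to 21.7% and ambiguous reads 2.51% to 3.43% of each pool, and all these lines were left out. Lanes and libraries were summed to 6 pools, 3 per genotype. Genotypes were compared with edgeR 4.0.16 (R 4.3.3, filterByExpr, TMM, robust quasi-likelihood F test, no block, Benjamini-Hochberg adjustment over 21477 genes). The method was first tried on counts simulated with the spread of these pools, where it called few of the genes that were given a change. A gene that was not called is therefore not shown to be unchanged. Standard errors are the log2 fold change divided by the root of F. DESeq2 1.42.0 was an alternative. The p-values measure the spread between pools, and whether pools shared animals was not stated. Copies were found with BLAST 2.17.0 in GENCODE M21 transcripts, at 90% identity over 200 bases and 50% of the copy's exons. Genes were given pool by pool where pools did not overlap, the absolute log2 fold change was at least 1, the unadjusted p was under 0.05, or the p was the smallest of its role. In other lists, the 2 genes with the smallest p were given, and further names were chosen after their values were seen. The genes and lists were chosen with earlier results of these data known. Overlap under other settings, isozyme shares with copies or transcript length, and levels per kilobase of the longest coding transcript were alternatives chosen after seeing the data.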

Additional observations from a re-analysis of the deposited data

How the results depend on the processing

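Over 14 alternatives, none of the 33 genes passed the threshold between genotypes, 431 of 462 fitted values kept their sign, and 18 genes kept it in all. With library size as the only scaling, the log2 fold change was 0.0153 for Pfkl and 0.0714 for Pdk2, and with no filter on low counts 0.00793 for Pdk2. In the first libraries alone it was 0.89 for Pfkl, -0.0168 for Pfkp, -0.39 for Pfkfb3, 0.43 for Eno2 and 0.0809 for Pkm. In the second libraries alone it was -0.40 for Slc2a3, -0.28 for Hk1, -0.0732 for Pfkp, 0.0270 for Gapdh, 0.15 for Mpc2, -0.17 for Pdha1, 0.0288 for Pdhb and -0.0357 for Dlat. With 1 pool left out, the ranges were -0.28 to 0.27 for Pfkl, -0.18 to 0.23 for Pfkp, -0.20 to 0.30 for Pfkfb3, -0.39 to 0.0377 for Pdhb, -0.19 to 1.7e-05 for Gpi1, -0.15 to 0.13 for Pdk2, -0.0399 to 0.89 for G6pdx and -0.29 to 0.74 for Slc2a3. With 1 pool left out, between 9 and 13 genes did not overlap, against 22.1% to 31.2% of all genes. The 13 came without wild-type pool 3, against 27.6% of all genes. Fewer pools are then compared, and genes already apart with all pools tend to stay apart. In the second libraries alone 5 did not overlap, against 11% of all genes, among them Pdha1, there lower in CKO. With library size as the only scaling 6 did not overlap, 4 higher and 2 lower in place of 4 and 4, against 15.2% of all genes.

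Of the 12 isozyme shares, 0 did not overlap in the first libraries and 3 to 5 with 1 pool left out. In the first libraries the difference in share, CKO minus wild type, was 6.98 percentage points for Pfkl, -5.95 for Pfkm, 0.991 for Eno2 and 4.51 for Slc2a3, and in the second 0.143 for Ldha, -0.0804 for Pdk4 and -2.44 for Mpc1. With 1 pool left out it ranged from -5.48 to 2.13 for Pfkl, -3.38 to 1.38 for Pfkp, -0.875 to 0.487 for Eno2, -3.85 to 1.73 for Slc2a3, -0.749 to 1.19 for Mpc1 and -22.9 to 1.28 for Pfkfb3. The cause was not tested.

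DESeq2 called 124 genes between genotypes, and between libraries 2076 with 5 of the 33. Without a filter edgeR called 6 genes between libraries. The labels do not say whether pool numbers pair the samples. Correlations of deviations were 0.056, 0.022 and -0.028 for pools of the same number and -0.087 to 0.054 for the others, which cannot settle it. With pool number as a replicate block 0 genes were called and 16 of 33 were above 0. Depth limits Hk2 and Slc16a3, with 2 to 476 reads per pool.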
